A study of Caenorhabditis elegans with 36 samples.

Results

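The 6 libraries labelled *eat-2* were compared with the 6 libraries labelled wild type 20 °C, 12 of the 36 libraries in the series, on the 16627 genes whose count was 10 or more in 6 or more of those 12. *eat-2* encodes a subunit of a nicotinic acetylcholine receptor that sets the pace of pharyngeal pumping, and worms that lack it take in less food and serve as a model of dietary restriction. The study's strain list gives the allele as *eat-2(ad1116)*, which is carried in every tissue. Whether these libraries hold that strain is unsettled, because transcript levels given next go against the labels of mutant groups. Polyadenylated RNA of whole worms was sequenced, so each level is an average over all tissues, and fewer cells of a type cannot be told apart from less RNA per cell. The labels call all of these worms prefertile young adults, raised on OP50 bacteria, whereas the extraction text speaks of adults on day 1. The libraries labelled *eat-2* carry a temperature label of 20 °C, as do those of wild type 20 °C. A further 6 libraries are labelled wild type 25 °C, although the growth text of every library gives 20 °C. These were set against the same wild type 20 °C libraries, so the comparisons share their controls, and their values are given side by side. They were also tested directly against the libraries labelled *eat-2*, where label genotype and label temperature differ together and cannot be told apart. Levels are CPM, the usual scaling of a gene's counts by the total of its library, with TMM factors over these 18 libraries, and a group of 6 is given by its lowest, median and highest library. Total counts ran from 35524715 to 51287001 per library. The series describes the libraries of a group as biological replicates without saying how they were kept apart, and p-values measure the spread between these libraries. Genes named from a list were those with the largest changes among the called genes whose groups did not overlap, so the lack of overlap in a named gene is not a finding.

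The transcripts of the genes that name the mutants were looked at first. *ife-2*, which encodes one of the cap-binding proteins that start translation (chromosome X from 381385 to 382709), had 3.40, 3.62 and 4.01 CPM in the libraries labelled *eat-2*, 29.0, 37.8 and 40.8 CPM in wild type 25 °C and 23.5, 24.6 and 25.5 CPM in wild type 20 °C. All 6 libraries labelled *eat-2* lay far below every wild-type library (log2 fold change -2.76 ± 0.06, adjusted p = 3.38e-12 by the edgeR quasi-likelihood test against 20 °C). With all 36 libraries scaled together, the libraries labelled *ife-2* held 52.8 to 59.7 CPM of this transcript, above all wild-type libraries. *eat-2* itself (chromosome II from 14166878 to 14171658) was scarcely detected in any group, at 0.399, 0.661 and 0.771 CPM in the libraries labelled *eat-2*, 0.271, 0.519 and 0.655 CPM in wild type 25 °C and 0.173, 0.282 and 0.375 CPM in wild type 20 °C (log2 fold change 1.11 ± 0.24, adjusted p = 0.00258). The call was lost without wild type 20 °C replicates 5 and 6, at a log2 fold change of 0.93. A mutation need not change the level of its own transcript, so *eat-2* gave no check of the label, whereas *ife-2* went against it. The germ line receptor gene *glp-1* also differed where its label does not place a change. With all 36 libraries scaled together it held 4.82 to 8.92 CPM in the libraries labelled *ife-2*, against 186 to 228 CPM in wild type 20 °C. The libraries labelled *glp-1*, whose temperature label is 25 °C, held 139 to 211 CPM, against 95.7 to 184 CPM in wild type 25 °C. The labels *eat-2*, *ife-2* and *glp-1* may have been exchanged among these groups, which the levels do not settle. Of these groups, only that labelled *glp-1* carries a temperature label of 25 °C. Every direction below belongs to the libraries labelled *eat-2*, whichever strain they hold, and they are called so throughout. *osm-5*, a gene of cilia, had 1.27, 1.37 and 1.52 CPM in the libraries labelled *eat-2* against 2.78, 3.08 and 3.27 CPM in wild type 20 °C (log2 fold change -1.16 ± 0.09, adjusted p = 9.47e-07), and wild type 25 °C was as low, at 0.727, 0.997 and 1.49 CPM. Between the libraries labelled *eat-2* and wild type 20 °C *glp-1* did not pass the test, at 91.0, 158 and 199.8 CPM against 164, 197 and 212 CPM (log2 fold change -0.35 ± 0.14, adjusted p = 0.0571).

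The gut, the skin (hypodermis) and the body wall muscle make up most of the soma of an adult hermaphrodite, beside a germ line that first makes sperm and then oocytes. Markers of all of these tissues were found in both groups. The summed level of 8 body wall muscle markers was 14963 to 15849.5 CPM in the libraries labelled *eat-2* and 11625 to 13284 CPM in wild type 20 °C, and 8 markers of early embryos summed to 0.505 to 0.998 and 1.04 to 1.78 CPM, where each was under 1 CPM in every library except *pes-10*, whose highest wild type 20 °C library held 1.09 CPM. The 5 markers of males summed to 2.21 to 8.80 CPM in the libraries labelled *eat-2*, highest in replicate 2, and to 2.36 to 11.2 CPM in wild type 20 °C, highest in replicate 5, and their part in the results was not tested. Replicates were uneven. The summed oocyte and eggshell transcripts were lowest in *eat-2* replicate 2, at 3140.1 CPM, and highest in *eat-2* replicate 4, at 10847 CPM, while the molting cycle genes ran the other way, at 2363 CPM in replicate 2 and 531 CPM in replicate 4. Wild type 25 °C replicates 1 and 3 had 335 and 360.4 CPM of molting cycle transcripts, the lowest of their group. In wild type 20 °C, replicate 5 stood apart through 47 genes with at least 5 CPM and 10 times the level of any of replicates 1 to 4, among them 12 C-type lectins. These 47 genes, picked after their values were seen, summed to 29.2 to 67.8 CPM in the libraries labelled *eat-2*, against 520.2 CPM in wild type 20 °C replicate 5, 119.7 CPM in replicate 6 and 7.56 to 11.3 CPM in the other 4. Counts of calls were therefore also taken without *eat-2* replicates 2 and 4 and without wild type 20 °C replicates 5 and 6.

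At an adjusted p below 0.01, 3057 genes were higher (18.4% of those tested) and 2128 were lower (12.8%) in the libraries labelled *eat-2* than in wild type 20 °C, 31.2% in all. Most changes were small, with 342 genes (2.06%) at least 2-fold higher and 621 (3.73%) at least 2-fold lower. The number of lower genes was 3230 without *eat-2* replicates 2 and 4. With libraries scaled by their total counts alone, 1403 genes were higher and 3805 lower, a share of higher calls of 26.9% in place of 59.0%, and the median over all genes was -0.11 on the log2 scale in place of 0.01. In wild type 25 °C, 2139 genes were higher (13.0% of 16506) and 1808 lower (11%) than in the same wild type 20 °C libraries. Set directly against wild type 25 °C, the libraries labelled *eat-2* had 15 genes higher (0.092% of 16298) and 32 lower (0.196%) by edgeR, 0.288% in all, with 1675 genes at an unadjusted p below 0.05, and 53 higher and 131 lower by DESeq2. These percentages are the background for the lists, whose shares the bar chart of gene lists gives for both comparisons.

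**Figure D1:**
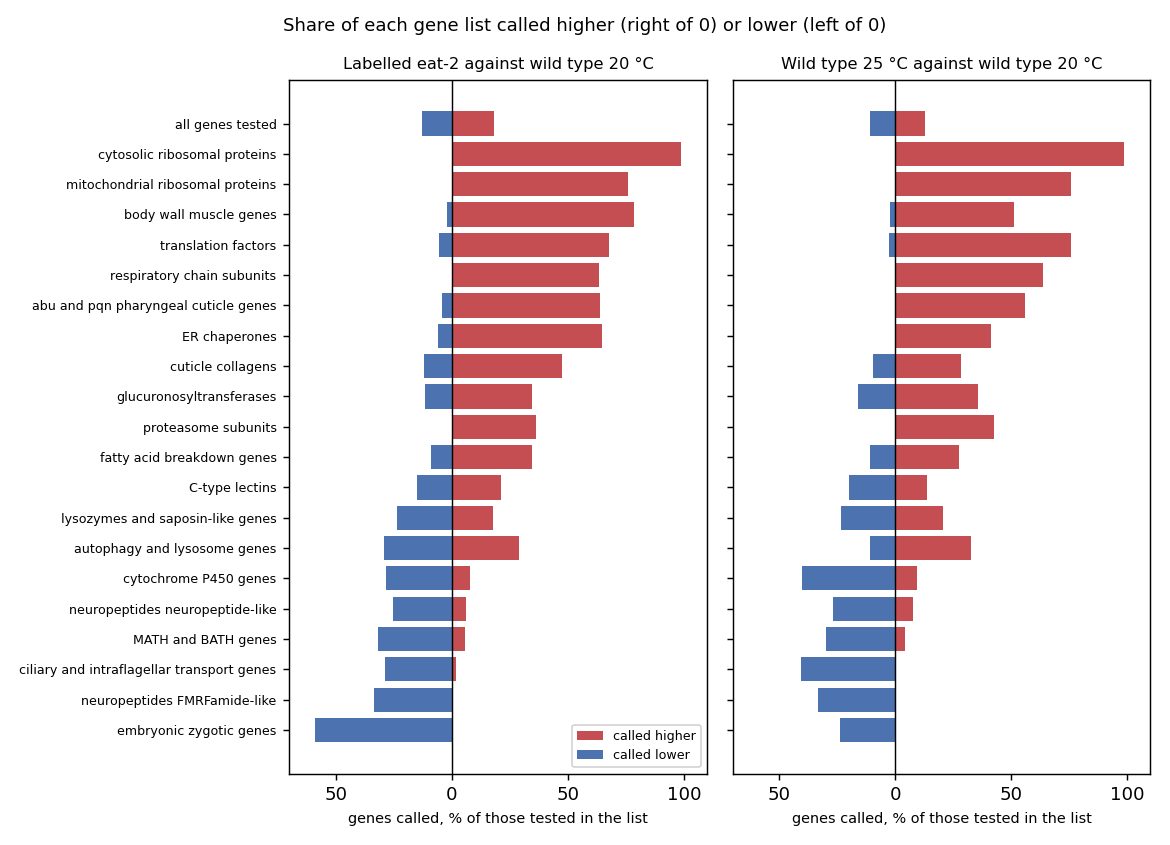
Share of the tested genes of 20 lists that were called higher (red, right of 0) or lower (blue, left of 0) at an adjusted p below 0.01, for the libraries labelled *eat-2* (left panel) and wild type 25 °C (right panel), each against the same 6 wild type 20 °C libraries, with all genes tested on top. Cytosolic ribosomal protein genes reached 98.8% higher in both panels, and in the ciliary, FMRFamide-like and embryonic lists at the bottom nearly all calls were lower.

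Genes of protein synthesis were higher far more often than lower. Ribosomes are built from large and small subunit proteins (*rpl* and *rps*) that are assembled on ribosomal RNA in the nucleolus, and mitochondria hold ribosomes of their own. Of 82 cytosolic ribosomal protein genes tested, 81 were higher and none lower in the libraries labelled *eat-2*, with a median log2 fold change of 0.41 beside 0.01 over all genes, and 81 were higher in wild type 25 °C, with a median of 0.44. Their summed level was 93465, 100063 and 117074 CPM in the libraries labelled *eat-2*, 98898, 108363 and 118435 CPM in wild type 25 °C and 75483, 76688 and 82845 CPM in wild type 20 °C. Neither of the first 2 groups overlapped wild type 20 °C, and *eat-2* replicates 2 and 4 were the highest of their group. The rises were small, with fitted log2 fold changes of 0.24 to 0.70 over the 82 genes. The largest was that of *rpl-42*, a gene of very low level beside the sum of the list. *rpl-42* had 3.76, 4.18 and 4.64 CPM in the libraries labelled *eat-2* against 2.20, 2.44 and 3.02 CPM in wild type 20 °C (log2 fold change 0.70 ± 0.10, adjusted p = 0.000117). *rpl-11.2* had 580.1, 691 and 1044 CPM against 428, 465 and 555 CPM (log2 fold change 0.61 ± 0.12, adjusted p = 0.00159), with *eat-2* replicate 2 far above the rest of its group. With total-count scaling 57 of the genes were still higher.

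Other parts of the machinery were also higher more often than lower. Of 66 mitochondrial ribosomal protein genes 50 were higher and none lower, with a median of 0.26, and as many were higher in wild type 25 °C. *mrps-23*, of the small mitochondrial subunit, had 18.9, 19.8 and 20.0 CPM in the libraries labelled *eat-2* against 12.8, 13.4 and 15.5 CPM in wild type 20 °C (log2 fold change 0.52 ± 0.06, adjusted p = 2.28e-05). It overlaps *prp-40* on the opposite strand, and whether reads were counted by strand is not stated, so reads of the pair cannot be told apart. The same holds for the other genes noted as overlapping, and for *act-1*, *osm-5*, *glp-1*, *vit-2*, *elo-5* and *WBGene00017849*, each of which also overlaps a gene on the opposite strand. Translation factor genes were higher for 25 of 37, and the lower ones were *ife-2* and its relative *ife-5*. *eef-1A.2*, which encodes the factor that brings charged tRNAs to the ribosome, had 788, 855 and 1057 CPM against 504, 539 and 609 CPM (log2 fold change 0.69 ± 0.08, adjusted p = 2.12e-05). Of 31 aminoacyl-tRNA synthetase genes, which encode the enzymes that charge those tRNAs, 15 were higher and 1 was lower. *gars-1*, for glycine, had 217, 228 and 243 CPM against 157, 162 and 167 CPM (log2 fold change 0.49 ± 0.04, adjusted p = 2.05e-06). Genes of ribosome assembly and the nucleolus were higher for 15 of 30 and lower for none, or 1 lower without *eat-2* replicate 4, and *rpoa-1*, for the largest subunit of RNA polymerase I, had 108, 127 and 150.2 CPM against 88.8, 95.1 and 100.1 CPM (log2 fold change 0.44 ± 0.07, adjusted p = 0.000298). With total-count scaling the higher genes were 20 for mitochondrial ribosomes, 11 for translation factors, 6 for synthetases and 8 for the nucleolus, and synthetases were higher for 7 without wild type 20 °C replicates 5 and 6. Proteasome subunits, which take proteins apart, had 12 of 33 genes higher and none lower, a count that was 7 without *eat-2* replicate 3 or 6 and 0 with total-count scaling.

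Nuclear genes for the respiratory chain were higher for 33 of 52 and lower for none, with a median of 0.24, and wild type 25 °C had the same count. Their summed level was 14062, 14706 and 16053 CPM in the libraries labelled *eat-2* against 12072, 12387 and 13273 CPM in wild type 20 °C, without overlap. *isp-1*, which encodes the iron-sulfur protein of complex III, had 349.6, 365 and 427 CPM against 275, 282 and 305 CPM (log2 fold change 0.38 ± 0.05, adjusted p = 0.000171), with *eat-2* replicate 2 above the rest of its group. With total-count scaling 3 of these genes were higher. Transcripts of the mitochondrial genome itself went the other way. Of 14 tested, none was higher and 6 were lower, with a median of -0.39, beside 1 lower in wild type 25 °C, with a median of 0.03. *COX3*, a core subunit of complex IV, averaged 1349 ± 277 CPM in the libraries labelled *eat-2* and 2099 ± 258 CPM in wild type 20 °C (SD, n = 6 each; log2 fold change -0.65 ± 0.13, adjusted p = 0.0016). The test against wild type 25 °C, which averaged 2165 ± 883 CPM, did not call *COX3* (adjusted p = 0.268), so a difference between these 2 groups was not shown. *ND1* and *ND6*, for subunits of complex I, fell by 0.41 and 0.37 on the log2 scale. These 3 genes were named after their values were seen, and their transcripts are measured here in libraries made from polyadenylated RNA.

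Muscle genes were higher as a group. Contraction of body wall muscle rests on actin and myosin filaments and on the troponin and tropomyosin that regulate them. Of 47 body wall muscle genes, 37 were higher and 1 lower, which was not called without any library other than *eat-2* replicate 2 or 4 or wild type 20 °C replicate 5, with a median of 0.35, beside 24 higher and 1 lower in wild type 25 °C. The summed level was 34050.3, 35119 and 35966 CPM in the libraries labelled *eat-2*, 29701, 34342 and 40139.7 CPM in wild type 25 °C and 25706, 26618 and 29102 CPM in wild type 20 °C. The libraries labelled *eat-2* lay close together and above all of wild type 20 °C, of which replicate 5 was the highest, while wild type 25 °C was spread more widely. *tni-1*, a troponin I gene, had 96.0, 109 and 142 CPM against 47.4, 57.0 and 68.6 CPM (log2 fold change 0.98 ± 0.10, adjusted p = 1.1e-05). *mup-2*, for the troponin T of body wall muscle, had 839, 871 and 979 CPM against 426, 452 and 558 CPM (log2 fold change 0.90 ± 0.07, adjusted p = 8.98e-07). *act-1*, one of several near-identical actin genes between which reads may be shared, had 2602, 2679.6 and 3070.3 CPM against 1621, 1705 and 1962 CPM (log2 fold change 0.67 ± 0.07, adjusted p = 8.32e-06). The myosin heavy chain gene *unc-54* changed less, with 5738, 5898 and 6229 CPM against 4677, 4949 and 5379 CPM (log2 fold change 0.25 ± 0.05, adjusted p = 0.00119), and was not called with total-count scaling, at a log2 fold change of 0.13. Total-count scaling left 17 muscle genes higher. Genes of the pharynx, the organ in which *eat-2* acts, gave no common direction, with 4 of 31 higher and 4 lower. Each share was 12.9%, beside 18.4% higher and 12.8% lower over all genes. Without *eat-2* replicate 2 or wild type 20 °C replicate 5, 7 were higher. Among the 4 higher genes was the scarcely detected *eat-2* itself, whose log2 fold change of 1.11 was the largest in the list. *phat-3*, a gene for a secreted peptide of the pharynx, had 4.23, 4.41 and 4.63 CPM against 7.92, 8.97 and 9.90 CPM (log2 fold change -1.02 ± 0.07, adjusted p = 4.09e-07).

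**Figure D2:**
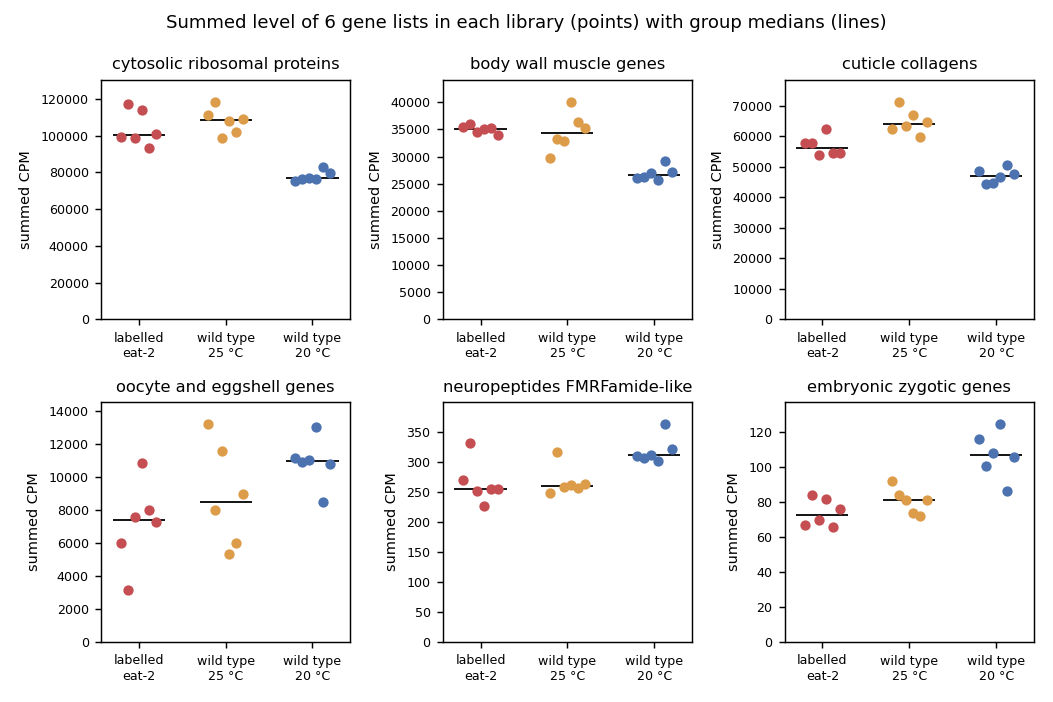
Summed CPM of 6 gene lists in each library (points) with the median of each group (line), for the libraries labelled *eat-2*, wild type 25 °C and wild type 20 °C from left to right in each panel. Ribosomal protein, muscle and collagen transcripts of the libraries labelled *eat-2* lay above all 6 wild type 20 °C libraries and embryonic transcripts below them, while oocyte and FMRFamide-like neuropeptide transcripts overlapped.

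Genes of the cuticle, the collagen coat that the skin secretes anew at each molt, included both rises and near-complete losses. Of 160 cuticle collagen genes, 76 were higher and 19 lower, with a median of 0.73, and wild type 25 °C had 45 higher and 15 lower of 158. The summed level was 53789, 56099 and 62297 CPM in the libraries labelled *eat-2* against 44346, 47097 and 50567 CPM in wild type 20 °C, without overlap. *col-154* had 178, 194 and 261 CPM against 51.6, 66.3 and 93.3 CPM (log2 fold change 1.63 ± 0.15, adjusted p = 3.76e-06). *col-152* had 13.2, 14.9 and 18.3 CPM against 3.87, 4.84 and 5.93 CPM (log2 fold change 1.66 ± 0.13, adjusted p = 1.14e-06). For both of these collagens replicate 2 was the highest library labelled *eat-2* and replicate 5 the highest of wild type 20 °C. The falls were fewer and steeper. *col-36* was at 0.0454, 0.0774 and 0.160 CPM in the libraries labelled *eat-2*, 0.0243, 0.0827 and 0.488 CPM in wild type 25 °C and 1.32, 5.45 and 10.3 CPM in wild type 20 °C (log2 fold change -5.76 ± 0.59, adjusted p = 1.16e-05). *col-158*, which overlaps genes on the opposite strand, had 0.259, 0.495 and 0.665 CPM in the libraries labelled *eat-2*, 0.378, 0.599 and 1.32 CPM in wild type 25 °C and 1.90, 6.08 and 11.6 CPM in wild type 20 °C (log2 fold change -3.74 ± 0.45, adjusted p = 4.03e-05). In wild type 20 °C, replicate 1 was the highest and replicates 2 and 5 the lowest for both. The number of collagens that were lower was 33 without *eat-2* replicate 4 and 12 without wild type 20 °C replicate 1, 4 or 6. Genes that are nearly off in 6 libraries reach the minimum of 10 counts only through the other 6, so when a wild type 20 °C library was left out, *col-36* was no longer tested.

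Other genes of the skin also included single rises and near-complete losses, in lists whose shares of calls were in part near those of all genes. Hedgehog-related genes of *C. elegans* encode secreted proteins, many of them made by the cells that form cuticle. Of 45 tested, 11 were higher (24.4%, beside 18.4% of all genes) and 3 lower (6.67%, beside 12.8% of all genes). *grl-23* was at 0, 0.0426 and 0.0914 CPM in the libraries labelled *eat-2*, 0, 0.0399 and 0.0667 CPM in wild type 25 °C and 1.25, 3.47 and 6.97 CPM in wild type 20 °C (log2 fold change -6.11 ± 0.59, adjusted p = 6.89e-06). *grl-25* was at 0.0398, 0.144 and 0.194 CPM, 0.0260, 0.0875 and 0.194 CPM and 1.04, 3.94 and 5.63 CPM in the same order (log2 fold change -4.69 ± 0.52, adjusted p = 2.16e-05). These genes and *grl-20*, the third that was lower, overlap genes on the opposite strand. None of them reached the count minimum once any wild type 20 °C library was left out, when no hedgehog-related gene was called lower, or 1 without replicate 5. In the other direction, *grl-27* had 6.80, 7.40 and 9.48 CPM in the libraries labelled *eat-2* against 0.712, 1.44 and 1.59 CPM in wild type 20 °C (log2 fold change 2.53 ± 0.17, adjusted p = 2.41e-07). The count of 11 was 7 without *eat-2* replicate 1 or 6 and without wild type 20 °C replicate 1, 3, 4 or 6. *cut-1*, for a cuticlin known from the dauer cuticle, was at 0.0229, 0.0410 and 0.113 CPM in the libraries labelled *eat-2*, 0, 0.0527 and 0.0728 CPM in wild type 25 °C and 0.529, 2.08 and 3.84 CPM in wild type 20 °C (log2 fold change -5.28 ± 0.55, adjusted p = 1.35e-05), while its relative *cut-2* was higher, at 165, 240.4 and 342 CPM against 57.9, 94.9 and 127 CPM (log2 fold change 1.45 ± 0.20, adjusted p = 0.000112). *cut-1* also overlaps opposite-strand genes. Of 25 *abu* and *pqn* genes, which encode repeat proteins of the pharyngeal cuticle, 16 were higher and 1 lower, with a median of 0.86. Chaperones of the endoplasmic reticulum, where collagens are folded, were higher for 11 of 17 and lower for 1. *hsp-3*, for a BiP homologue, had 914, 1122 and 1482 CPM against 564, 641 and 822 CPM (log2 fold change 0.77 ± 0.12, adjusted p = 0.000233), with *eat-2* replicate 2 the highest library. The genes of the molting cycle, whose sum set *eat-2* replicates 2 and 4 apart, had 5 of 26 higher and none lower. Their share of higher genes, 19.2%, was near the 18.4% of all genes. The higher ones were 11 without *eat-2* replicate 4 and 3 without *eat-2* replicate 1 or wild type 20 °C replicate 1, 3, 4 or 6.

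**Figure D3:**
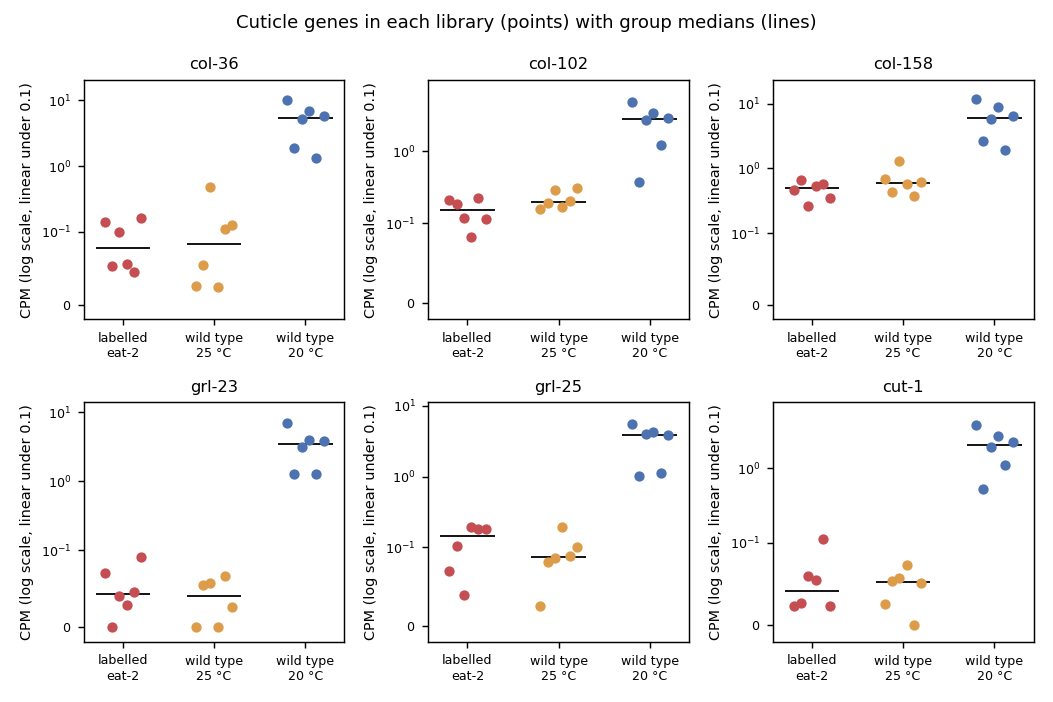
CPM of 6 cuticle genes in each library (points, on a log scale that is linear under 0.1) with group medians (lines), for the libraries labelled *eat-2*, wild type 25 °C and wild type 20 °C from left to right. All 6 genes were lower in both groups on the left than in any wild type 20 °C library, where *col-36* held 1.32 to 10.3 CPM. Named genes were picked for no overlap between the libraries labelled *eat-2* and wild type 20 °C, so that separation is not a finding. *col-36*, *grl-23* and *grl-25* were no longer tested once a wild type 20 °C library was left out.

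Few transcripts of oocytes passed the test, and libraries were spread widely. Oocytes are loaded with eggshell proteins and with yolk that the gut makes. All 29 oocyte and eggshell genes had fitted log2 fold changes below 0, with a median of -0.63, but 3 were called lower, a share under that of all genes, beside none in wild type 25 °C, whose median was -0.31. Their sum was 3140.1, 7433 and 10847 CPM in the libraries labelled *eat-2* against 8473, 10978 and 13049.7 CPM in wild type 20 °C, and the groups overlapped because *eat-2* replicate 4 lay above wild type 20 °C replicates 5 and 6. The number of calls followed the libraries. It was 28 without *eat-2* replicates 2 and 4, 24 without replicate 4 alone, 12 without replicate 2, 5 without wild type 20 °C replicate 5, and 1 without any other single library. *cav-1*, for a caveolin, had 0.532, 2.17 and 4.92 CPM in the libraries labelled *eat-2* against 5.41, 8.70 and 13.6 CPM in wild type 20 °C (log2 fold change -1.91 ± 0.40, adjusted p = 0.00182). *rme-2*, for the receptor through which oocytes take up yolk, had 142, 386 and 566 CPM against 418, 565 and 673 CPM and did not pass (log2 fold change -0.62 ± 0.24, adjusted p = 0.0463), but was called without *eat-2* replicate 4, at a log2 fold change of -0.79. *vit-2*, a yolk protein gene of the gut, had 2857, 8174 and 12830.3 CPM against 11957, 15861 and 21132 CPM (log2 fold change -1.04 ± 0.27, adjusted p = 0.00618), with replicate 2 the lowest and replicate 4 the highest of the libraries labelled *eat-2*. That call was lost when *eat-2* replicate 1, 3 or 6 or wild type 20 °C replicate 1, 2, 3, 4 or 6 was left out, and the other 5 yolk genes were not called. The median over the 6 was -0.34. Wild type 25 °C went the other way, with 3 of the 6 higher, none lower and a median of 0.65, although 1 was higher without wild type 20 °C replicate 2 and 2 without replicate 3 or 6, and 2 were lower without wild type 25 °C replicates 1 and 3. The direct test between the libraries labelled *eat-2* and wild type 25 °C called none of the 6. The 6 yolk genes together summed to 9817, 32869.6 and 54984 CPM in the libraries labelled *eat-2*, 34572, 49345 and 84181 CPM in wild type 25 °C and 33832, 50449.7 and 68250.1 CPM in wild type 20 °C, and the 3 groups overlapped. DNA replication genes were lower for 7 of 34, a count of 28 without *eat-2* replicate 4, 13 without *eat-2* replicate 2, 11 without wild type 20 °C replicate 5 and 3 or 4 without any other library.

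Genes switched on in embryos were lower, while the share of higher genes differed between 2 lists of sperm genes. Of 48 embryonic zygotic genes in the list, 22 had enough counts to be tested, and 13 of these were lower and none higher, or 1 higher without *eat-2* replicate 5, beside 5 lower of 21 in wild type 25 °C. *vet-6* had 0, 0.261 and 0.857 CPM in the libraries labelled *eat-2* against 1.51, 2.07 and 4.02 CPM in wild type 20 °C (log2 fold change -2.84 ± 0.58, adjusted p = 0.00157), with replicate 4 the highest library in both groups. *sdz-30* had 0, 0.170 and 0.304 CPM against 0.712, 1.10 and 2.25 CPM (log2 fold change -3.02 ± 0.54, adjusted p = 0.000691). Such low genes pass the count minimum mainly through wild type 20 °C, and the count was 7 or 8 without *eat-2* replicate 3 or wild type 20 °C replicate 1, 3, 4 or 6. Of 31 major sperm protein genes, near-identical copies whose reads may be shared, 2 were higher, beside 18 in wild type 25 °C. The share of 6.45% lay under the 18.4% of all genes. Their sum was 2171, 2758 and 3163 CPM in the libraries labelled *eat-2*, 2859.8, 3109 and 3437 CPM in wild type 25 °C and 2201, 2367 and 2883 CPM in wild type 20 °C, where replicate 5 was the highest. Without *eat-2* replicate 2, the lowest of its group, 13 were higher, and 6 were without wild type 20 °C replicate 5, while *eat-2* replicate 1, 3, 4, 5 or 6 or wild type 20 °C replicate 2, 3, 4 or 6 left 1. Other sperm genes were higher for 28 of 98 (28.6%, beside 18.4% of all genes) and lower for 6 (6.12%, beside 12.8%). The higher ones were 17 or 18 without *eat-2* replicate 1 or 6 or wild type 20 °C replicate 1, 2, 4 or 6. The higher ones were 45 without *eat-2* replicates 2 and 4, while total-count scaling turned the lean, with 6 higher and 8 lower. *spe-18* had 80.1, 86.8 and 102 CPM against 52.3, 60.1 and 75.4 CPM (log2 fold change 0.53 ± 0.08, adjusted p = 0.000318). Against that direction, *nspa-7*, one of a family of small nematode-specific peptide genes, had 0.696, 1.21 and 1.44 CPM against 3.35, 4.43 and 9.30 CPM (log2 fold change -2.19 ± 0.28, adjusted p = 6.75e-05).

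Genes of neuropeptides and cilia leaned downwards. Neuropeptides are cut from longer precursors by enzymes such as EGL-3 and released from dense core vesicles. Of 30 FMRFamide-like (*flp*) genes none was higher and 10 were lower, and of 67 neuropeptide-like (*nlp*) genes 4 were higher and 17 lower. Wild type 25 °C had 10 *flp* and 18 *nlp* genes lower. The summed *nlp* levels overlapped. They were 572, 605 and 765 CPM in the libraries labelled *eat-2*, 675, 707 and 793 CPM in wild type 25 °C and 647, 683 and 733 CPM in wild type 20 °C. *flp-25* had 1.53, 2.10 and 2.58 CPM in the libraries labelled *eat-2* against 3.53, 4.16 and 4.77 CPM in wild type 20 °C (log2 fold change -1.05 ± 0.13, adjusted p = 6.02e-05). *nlp-28*, one of a cluster of antimicrobial peptide genes of the skin, had 5.56, 7.40 and 9.21 CPM against 21.2, 27.3 and 35.5 CPM (log2 fold change -1.87 ± 0.14, adjusted p = 1.04e-06). *nlp-51* had 3.95, 4.19 and 5.40 CPM against 11.9, 12.9 and 15.6 CPM (log2 fold change -1.62 ± 0.09, adjusted p = 6.71e-08), with *eat-2* replicate 2 and wild type 20 °C replicate 5 each above the rest of their group. The count of *flp* genes was 17 without *eat-2* replicate 2. It was 4 without wild type 20 °C replicates 5 and 6, and 4 with upper-quartile scaling. *egl-3* had 96.6, 108 and 114 CPM against 132, 138 and 154 CPM (log2 fold change -0.39 ± 0.06, adjusted p = 0.000162). *ins-7*, for an insulin-like peptide that in *C. elegans* acts on the DAF-2 receptor, had 1.08, 1.41 and 1.85 CPM against 3.78, 4.23 and 5.25 CPM (log2 fold change -1.63 ± 0.13, adjusted p = 1.88e-06). The cilia of the worm are found only on sensory neurons and are built by intraflagellar transport. Of 49 ciliary genes 14 were lower and 1 higher, with a median of -0.38, beside 20 lower and none higher in wild type 25 °C. *ift-139*, of the transport complex A, had 1.04, 1.28 and 1.73 CPM against 2.61, 2.98 and 3.26 CPM (log2 fold change -1.16 ± 0.13, adjusted p = 2.75e-05). Synaptic vesicle and transmitter genes had a median of 0.01, with 6 of 35 lower, or 3 without wild type 20 °C replicate 4.

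Digestive and defence genes of the gut were divided. Lysosomes of the gut hold lipases, cathepsins and lysozymes, which break down fat, protein and bacterial walls. Of 7 lysosomal lipase genes 3 were lower and none higher. *lipl-3* had 0.816, 1.41 and 4.28 CPM in the libraries labelled *eat-2*, 0.768, 1.08 and 1.30 CPM in wild type 25 °C and 8.58, 9.84 and 16.6 CPM in wild type 20 °C (log2 fold change -2.65 ± 0.35, adjusted p = 8.31e-05). *lipl-1* had 1.50, 5.73 and 13.1 CPM, 1.62, 2.55 and 3.06 CPM and 20.1, 32.1 and 42.0 CPM in the same order (log2 fold change -2.26 ± 0.45, adjusted p = 0.00145). In *C. elegans* both genes are known to be induced by fasting. Cathepsin and aspartyl protease genes were higher for 11 of 21 and lower for 3, with *asp-14* at 72.7, 91.0 and 97.0 CPM against 40.5, 45.0 and 49.0 CPM (log2 fold change 0.99 ± 0.08, adjusted p = 1.35e-06). *cpr-4*, for a secreted cathepsin B, had 187, 337 and 675 CPM against 777, 811 and 973 CPM (log2 fold change -1.23 ± 0.23, adjusted p = 0.00102), with *eat-2* replicate 2 and wild type 20 °C replicate 5 above the rest of their groups. Lysozyme and saposin-like genes were split, 6 of 34 higher and 8 lower. *lys-7* had 52.2, 77.9 and 139 CPM against 248, 299 and 347 CPM (log2 fold change -1.85 ± 0.19, adjusted p = 1.3e-05). *spp-17*, for a saposin-like protein, had 141, 158 and 189 CPM in the libraries labelled *eat-2*, 168, 208 and 237 CPM in wild type 25 °C and 41.5, 48.2 and 56.9 CPM in wild type 20 °C (log2 fold change 1.76 ± 0.09, adjusted p = 2.85e-08). Named genes such as *lys-7* and *spp-17* were picked for groups that did not overlap, so their separation from wild type 20 °C is not a finding.

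Genes that respond to bacterial infection were higher for 8 of 18 and lower for 1, or 2 without *eat-2* replicate 4, with a median of 0.62, and wild type 25 °C had 12 higher and none lower. *irg-5*, an infection response gene of the gut, had 1.77, 2.71 and 3.62 CPM in the libraries labelled *eat-2* against 0.242, 0.367 and 0.521 CPM in wild type 20 °C (log2 fold change 2.84 ± 0.22, adjusted p = 1.24e-06). *dod-17*, named as a gene downstream of DAF-16, had 12.8, 16.6 and 18.1 CPM against 5.09, 5.30 and 5.95 CPM (log2 fold change 1.58 ± 0.09, adjusted p = 6.22e-08). C-type lectins, a large family of secreted sugar-binding proteins, were higher for 30 of 142 (21.1%) and lower for 21 (14.8%). These shares were near the 18.4% and 12.8% of all genes. The counts were 19 higher and 27 lower with total-count scaling and 30 higher and 31 lower without *eat-2* replicates 2 and 4. Their median was -0.16, and it was 0.10 without wild type 20 °C replicate 5, in which 12 of these genes stood out. *clec-47* had 30.4, 55.7 and 96.4 CPM against 6.07, 10.8 and 23.8 CPM (log2 fold change 2.28 ± 0.32, adjusted p = 0.000145), with wild type 20 °C replicate 5 above the rest of its group. *clec-15* had 0, 0.112 and 0.319 CPM against 1.48, 2.08 and 4.06 CPM (log2 fold change -4.20 ± 0.46, adjusted p = 1.96e-05). Of 18 heat shock genes none was higher and 5 were lower, or 3 without *eat-2* replicate 6 or wild type 20 °C replicate 1. *hsp-16.41*, for a small heat shock protein, had 0.255, 1.13 and 3.70 CPM against 6.28, 11.7 and 15.2 CPM (log2 fold change -3.03 ± 0.48, adjusted p = 0.000304), and wild type 25 °C had 0.291, 0.890 and 1.35 CPM. The level in wild type 25 °C lay below that of wild type 20 °C as well.

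**Figure D4:**
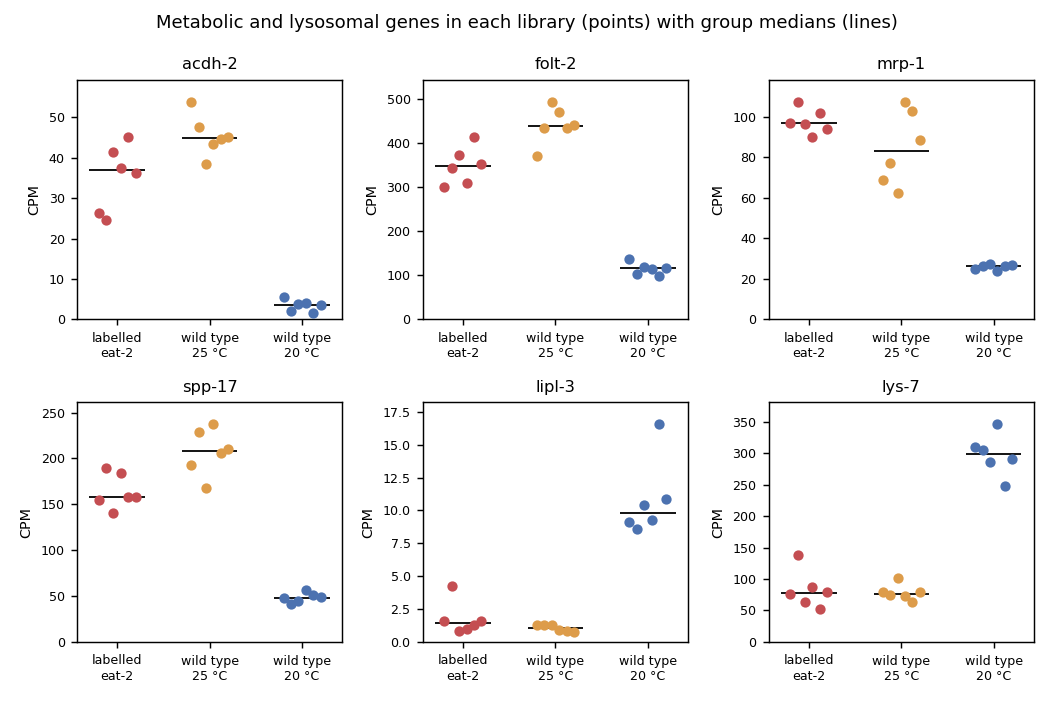
CPM of 6 metabolic and lysosomal genes in each library (points) with group medians (lines), for the libraries labelled *eat-2*, wild type 25 °C and wild type 20 °C from left to right. In *acdh-2*, *folt-2*, *mrp-1* and *spp-17* both groups on the left lay above every wild type 20 °C library, and in *lipl-3* and *lys-7* they lay below. The genes were picked for no overlap between the libraries labelled *eat-2* and wild type 20 °C, so that separation is not a finding.

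Genes of fat and one-carbon metabolism included steep rises in single genes. Fatty acids are broken down by beta-oxidation in mitochondria and peroxisomes. Of 55 such genes 19 were higher and 5 lower, or 8 higher with total-count scaling. *acdh-2*, for an acyl-CoA dehydrogenase, had 24.6, 36.9 and 45.2 CPM in the libraries labelled *eat-2*, 38.4, 44.8 and 53.9 CPM in wild type 25 °C and 1.53, 3.66 and 5.54 CPM in wild type 20 °C, a 10.2-fold rise against the last (log2 fold change 3.35 ± 0.28, adjusted p = 1.94e-06). *kat-1*, for a ketoacyl-CoA thiolase, had 271, 280.4 and 316 CPM against 167, 175 and 187 CPM (log2 fold change 0.68 ± 0.05, adjusted p = 7.21e-07). *ech-6*, an enzyme of propionate breakdown in *C. elegans*, had 464, 604 and 742 CPM against 323, 346 and 394 CPM (log2 fold change 0.75 ± 0.10, adjusted p = 8.06e-05). *acs-2*, for an acyl-CoA synthetase that fasting induces in *C. elegans*, went the other way, with 20.8, 24.1 and 27.2 CPM against 37.5, 56.6 and 116 CPM (log2 fold change -1.40 ± 0.22, adjusted p = 0.000326), and wild type 20 °C replicate 5 was the highest library. Desaturases and elongases, which build long and unsaturated fatty acids, were higher for 7 of 22 and lower for 5, or 3 higher and 5 lower with total-count scaling. *elo-5*, which makes branched-chain fatty acids, had 134, 182 and 189 CPM against 104, 113 and 128 CPM (log2 fold change 0.56 ± 0.08, adjusted p = 0.000222), whereas *fat-2* had 388, 469 and 547 CPM against 565, 608 and 693 CPM (log2 fold change -0.38 ± 0.08, adjusted p = 0.00229). The call for *fat-2* was lost without wild type 20 °C replicates 5 and 6 and with upper-quartile scaling, at log2 fold changes of -0.35 and -0.35.

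One-carbon metabolism passes methyl groups through folate and methionine. Of 24 genes 11 were higher and 2 lower, or 1 lower without any library other than *eat-2* replicate 2 or 4 or wild type 20 °C replicate 5, and 4 higher with total-count scaling. *folt-2*, for a folate transporter, had 300.1, 348 and 413 CPM in the libraries labelled *eat-2*, 369.9, 437 and 494 CPM in wild type 25 °C and 98.0, 116 and 136 CPM in wild type 20 °C (log2 fold change 1.60 ± 0.09, adjusted p = 7.66e-08). *ahcy-1*, for the enzyme that clears S-adenosylhomocysteine, had 2302, 2681 and 2797 CPM against 1389, 1489 and 1571 CPM (log2 fold change 0.82 ± 0.06, adjusted p = 3.78e-07). Insulin-like signalling runs from the receptor DAF-2 through the kinase AGE-1. Of 30 genes of this pathway and related longevity factors 9 were lower and 2 higher, or 1 higher without *eat-2* replicate 1 or wild type 20 °C replicate 2 or 4. The list holds the scarcely detected *eat-2* itself, whose log2 fold change of 1.11 was the largest rise in it. *daf-2* had 82.7, 97.6 and 110.3 CPM against 136, 147 and 155 CPM (log2 fold change -0.60 ± 0.07, adjusted p = 2.12e-05), with replicate 2 the lowest and replicate 4 the highest of the libraries labelled *eat-2*. Autophagy and lysosome genes were split, with 16 of 55 higher and 16 lower, against 18 and 6 in wild type 25 °C. *lgg-2*, for a protein of the autophagosome membrane, had 45.3, 49.6 and 67.5 CPM against 77.4, 83.1 and 93.8 CPM (log2 fold change -0.68 ± 0.09, adjusted p = 9.48e-05). *vha-6*, for a subunit of the proton pump of the gut surface, had 409, 433 and 568 CPM against 306, 330.3 and 342 CPM (log2 fold change 0.45 ± 0.08, adjusted p = 0.000476). With total-count scaling 2 genes of the list were higher and 25 lower.

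Families of detoxification differed in their shares of calls, beside 18.4% higher and 12.8% lower over all genes. Cytochrome P450 enzymes oxidise foreign compounds, transferases attach sugar or glutathione to them, and ABC transporters pump them out. Of 64 P450 genes 18 were lower (28.1%) and 5 higher (7.81%). The higher ones were 8 without *eat-2* replicate 5 and 1 to 3 without *eat-2* replicate 1, 3 or 6 or any single wild type 20 °C library. *cyp-13A5* had 1.33, 2.41 and 6.62 CPM in the libraries labelled *eat-2* against 7.71, 14.1 and 36.0 CPM in wild type 20 °C (log2 fold change -2.38 ± 0.45, adjusted p = 0.00109), with wild type 20 °C replicate 5 above the rest of its group. Glucuronosyltransferases were higher for 21 of 61 (34.4%) and lower for 7 (11.5%), and *ugt-26* had 79.7, 98.1 and 113 CPM against 22.2, 25.7 and 28.7 CPM (log2 fold change 1.87 ± 0.10, adjusted p = 3.11e-08). Glutathione S-transferases were higher for 6 of 42 (14.3%) and lower for 10 (23.8%). ABC transporters were higher for 18 of 51 (35.3%) and lower for 5 (9.80%). *mrp-1* had 89.9, 96.8 and 107 CPM in the libraries labelled *eat-2*, 62.4, 83.0 and 108 CPM in wild type 25 °C and 23.7, 26.2 and 27.1 CPM in wild type 20 °C (log2 fold change 1.91 ± 0.05, adjusted p = 4.66e-11). The X-linked P-glycoprotein genes *pgp-6* and *pgp-7* moved apart. *pgp-6* had 91.2, 129.8 and 183 CPM against 26.5, 34.7 and 48.5 CPM (log2 fold change 1.89 ± 0.17, adjusted p = 5.15e-06). *pgp-7* had 0.139, 0.413 and 0.857 CPM against 16.9, 25.3 and 31.7 CPM (log2 fold change -5.84 ± 0.32, adjusted p = 5.35e-08). Wild type 25 °C had 157, 208 and 307 CPM of *pgp-6* and 0.402, 0.895 and 1.84 CPM of *pgp-7*, so they moved apart there too, and reads may be shared between such related genes.

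Large families of regulators and of protein turnover were lower more often than higher. The lower share was 16.9% for nuclear hormone receptors, 20.9% for F-box and 31.9% for MATH and BATH genes, beside 12.8% of all genes. The higher share was 3.98%, 6.75% and 5.56% in the same order, beside 18.4% of all genes. Nuclear hormone receptors, ligand-bound transcription factors that form an expanded family in nematodes, were lower for 34 of 201 and higher for 8, beside 52 lower and 7 higher of 198 in wild type 25 °C. The lower ones were 20 without wild type 20 °C replicates 5 and 6. *nhr-114*, which in the gut and germ line acts in the response to diet, had 109, 134 and 171 CPM in the libraries labelled *eat-2* against 61.6, 76.7 and 92.9 CPM in wild type 20 °C (log2 fold change 0.82 ± 0.12, adjusted p = 0.000175), and it overlaps *Y45G5AM.9* on the opposite strand. F-box and MATH domain proteins bring substrates to ubiquitin ligases. F-box genes were lower for 34 of 163 and higher for 11, and the higher ones were 5 to 7 without any 1 of *eat-2* replicates 1, 3 and 6 and wild type 20 °C replicates 1, 2, 3, 4 and 6. *fbxa-172* was at or under the floor of 3 counts per library in all libraries labelled *eat-2*, against 1.06, 1.22 and 1.72 CPM in wild type 20 °C, so it was at least 18.4-fold lower. This gene reached the count minimum only through wild type 20 °C, so only a fall could be seen. MATH and BATH genes were lower for 23 of 72 and higher for 4, and the lower ones were 13 to 15 without *eat-2* replicate 1 or wild type 20 °C replicate 2, 4 or 6. *math-38* had 0.816, 1.10 and 1.44 CPM against 8.31, 9.74 and 11.4 CPM (log2 fold change -3.16 ± 0.14, adjusted p = 5.14e-09). *math-41*, on the same chromosome II, had 6.53, 7.69 and 9.06 CPM against 1.50, 1.61 and 1.81 CPM (log2 fold change 2.23 ± 0.09, adjusted p = 2.58e-09). For both genes wild type 25 °C lay with the libraries labelled *eat-2*. It had 0.378, 0.896 and 1.38 CPM of *math-38* and 5.71, 8.89 and 10.3 CPM of *math-41*.

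The largest falls included genes with little annotation, which were as low in wild type 25 °C. *C38D9.2*, on chromosome V, had 0.498, 0.757 and 1.30 CPM in the libraries labelled *eat-2*, 0.208, 0.684 and 0.705 CPM in wild type 25 °C and 183, 212 and 225.2 CPM in wild type 20 °C (log2 fold change -7.98 ± 0.17, adjusted p = 3.38e-12), 252-fold lower. *F15D4.5*, on chromosome II, had 1.02, 1.17 and 2.36 CPM, 0.753, 0.905 and 1.29 CPM and 141, 184 and 198 CPM in the same order (log2 fold change -7.06 ± 0.20, adjusted p = 3.8e-11). *F07B7.2*, on chromosome V, had 1.85, 2.13 and 3.08 CPM, 1.03, 2.25 and 2.73 CPM and 105, 147 and 171 CPM (log2 fold change -6.01 ± 0.16, adjusted p = 2.81e-11). In each of these genes all 6 wild type 25 °C libraries lay far below all 6 of wild type 20 °C. The lack of overlap between the libraries labelled *eat-2* and wild type 20 °C followed from the rule that picked the genes. The direct test against wild type 25 °C called none of the 3 (adjusted p = 0.546, 0.44 and 0.893). *C07G1.7*, which overlaps *svh-1* on the opposite strand, had 0.0830, 0.210 and 0.255 CPM against 15.8, 16.9 and 18.4 CPM (log2 fold change -6.41 ± 0.15, adjusted p = 8.2e-12). The chemoreceptor-like gene *srlf-37* was at or under the floor of 3 counts per library in all libraries labelled *eat-2*, against 0.425, 0.487 and 0.639 CPM in wild type 20 °C, so it was at least 7.03-fold lower. This gene reached the count minimum only through wild type 20 °C, so only a fall could be seen. Of the largest rises, *D1014.6* and *D1014.7* both lie on chromosome V. *D1014.6* had 4.48, 18.0 and 27.2 CPM in the libraries labelled *eat-2*, 0.459, 15.5 and 24.9 CPM in wild type 25 °C and 0.237, 0.576 and 0.850 CPM in wild type 20 °C (log2 fold change 4.76 ± 0.49, adjusted p = 1.25e-05). *BE0003N10.6*, on chromosome III, had 20.4, 53.5 and 94.5 CPM, 2.93, 52.4 and 79.3 CPM and 1.73, 3.24 and 4.45 CPM in the same order (log2 fold change 3.99 ± 0.39, adjusted p = 7.22e-06). Both genes were spread widely in the libraries labelled *eat-2*, where replicates 4 and 5 were the lowest.

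The 47 genes that the direct test called between the libraries labelled *eat-2* and wild type 25 °C were few, and 11 of them belonged to the 47 that stood out in wild type 20 °C replicate 5. Of the other 36, 10 were called against wild type 20 °C in the libraries labelled *eat-2* only and 12 in wild type 25 °C only, 9 in both with the same direction, 4 in both with opposite directions and 1 in neither. The genes named from this comparison, apart from those already described, were picked after their values were seen. The smallest p was that of *ife-2*, at a log2 difference of -3.29 ± 0.10 (adjusted p = 5.04e-10). *haf-6*, for an ABC transporter that in *C. elegans* takes part in RNA interference, had 6.76, 7.61 and 10.5 CPM in the libraries labelled *eat-2*, 39.2, 44.8 and 49.8 CPM in wild type 25 °C and 29.9, 34.1 and 35.6 CPM in wild type 20 °C (log2 difference -2.49 ± 0.11 against wild type 25 °C, adjusted p = 5.71e-08). It overlaps *Y48G8AL.7* on the opposite strand. *WBGene00005646*, annotated as a pseudogene (chromosome V from 7382021 to 7383309), had 8.83, 9.88 and 11.1 CPM in the libraries labelled *eat-2* and at most 0.111 CPM in wild type 25 °C and 0.151 CPM in wild type 20 °C (log2 difference 8.08 ± 0.42 against wild type 25 °C, adjusted p = 1.91e-07). Over all 36 libraries its level outside the libraries labelled *eat-2* did not exceed 0.172 CPM. It lies 0.92 kb from *srp-6*, a serpin gene that was lower than in wild type 25 °C, at 15.5, 16.2 and 17.8 CPM in the libraries labelled *eat-2* against 24.9, 25.8 and 30.1 CPM (log2 difference -0.68 ± 0.07, adjusted p = 0.000454).

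Other genes of this set were neighbours as well. *fbxa-192* (chromosome V from 17640672 to 17650527) had 0.544, 0.876 and 1.28 CPM in the libraries labelled *eat-2*, 4.08, 4.62 and 5.20 CPM in wild type 25 °C and 16.5, 18.7 and 19.02 CPM in wild type 20 °C (log2 difference -2.41 ± 0.17 against wild type 25 °C, adjusted p = 7.36e-06). *WBGene00010209* lies 0.63 kb on one side of it and *WBGene00010295* 2.96 kb on the other, and both were lower than in wild type 25 °C, at log2 differences of -1.89 and -3.16. *WBGene00010294*, 0.3 kb further on, was lower as well, at -1.14. *C09E7.8* and *WBGene00017849* on chromosome III, 0.51 kb apart, differed from wild type 25 °C by -1.18 and -1.21. *fln-2*, for a filamin, had 123, 133 and 154 CPM in the libraries labelled *eat-2*, 178, 232 and 307 CPM in wild type 25 °C and 228, 248 and 266 CPM in wild type 20 °C (log2 difference -0.80 ± 0.12 against wild type 25 °C, adjusted p = 0.00572), and overlaps *C23F12.8*. *lec-9*, a galectin gene, had 97.2, 108 and 157 CPM in the libraries labelled *eat-2* against 229.7, 257 and 283 CPM in wild type 25 °C (log2 difference -1.15 ± 0.12, adjusted p = 0.000416), and wild type 20 °C had 93.2, 103 and 108 CPM. The neighbouring collagens *col-7* and *col-62* were higher than wild type 20 °C in both groups and lower in the libraries labelled *eat-2* than in wild type 25 °C, at log2 differences of -0.70 and -0.61. Without wild type 25 °C replicates 1 and 3 the direct test called 6 genes higher and 20 lower. Without a single library it called 2 to 4 higher and 15 to 26 lower for those labelled *eat-2*, and 4 to 16 higher and 15 to 35 lower for those of wild type 25 °C. The higher genes were fewest, at 2, without *eat-2* replicate 1, 2, 5 or 6, and the lower genes, at 15, without *eat-2* replicate 3 or 6 or wild type 25 °C replicate 6.

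**Figure D5:**
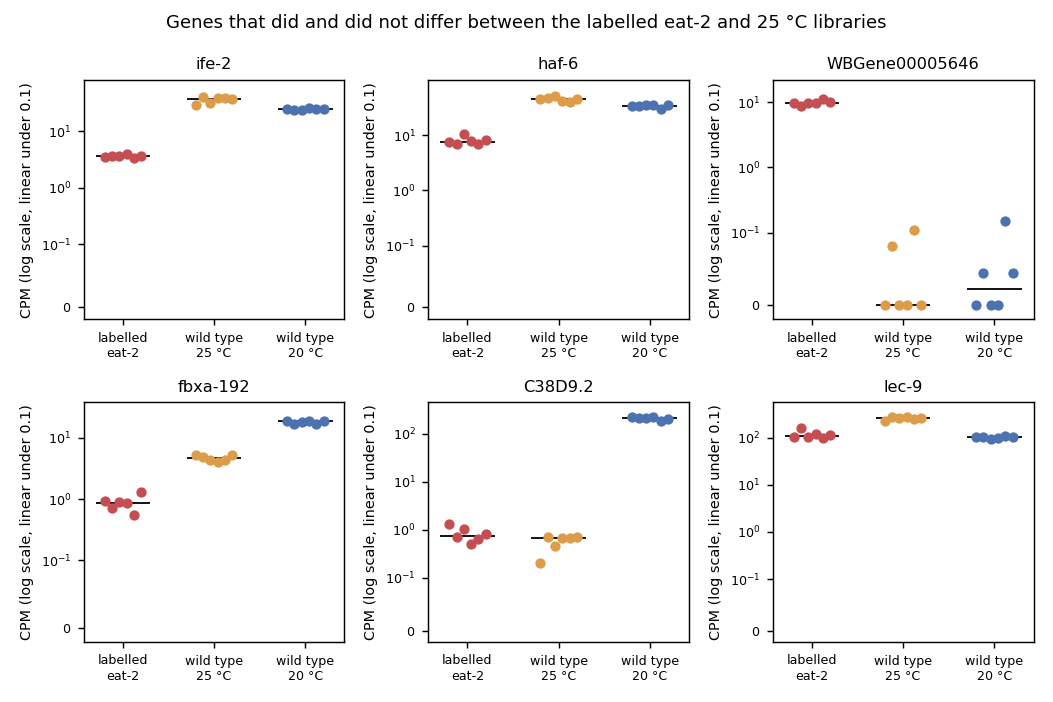
CPM of 6 genes in each library (points, on a log scale that is linear under 0.1) with group medians (lines), for the libraries labelled *eat-2*, wild type 25 °C and wild type 20 °C from left to right. *ife-2* and *haf-6* were low and *WBGene00005646* was high in the libraries labelled *eat-2*, *fbxa-192* stepped up over the 3 groups, *C38D9.2* was low in both groups on the left, and *lec-9* was high in wild type 25 °C.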

How the data were processed

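Polyadenylated RNA from whole *C. elegans* was measured in 36 libraries, of which the 18 labelled *eat-2*, wild type 25 °C and wild type 20 °C were used. The deposited values were estimated counts per gene, given as whole numbers. Per the labels and the study's methods, the authors trimmed reads with cutadapt, aligned them with STAR to WBcel235 and quantified transcripts with Salmon (Ensembl release 90). Counting at the transcript level shares reads between near-identical genes, and strand was not given in the sources used here. The authors' own test used DESeq2.

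Here, a gene was tested where its count was 10 or more in 6 or more of the 12 libraries compared, by the edgeR 4.0.16 quasi-likelihood test in R 4.3.3, with TMM scaling, Benjamini-Hochberg adjustment over all genes and a threshold of 0.01, the level in the study's methods. Errors beside fold changes are standard errors. Alternatives were DESeq2 1.42.0, other scalings, no filter on low counts, a replicate block and leaving out libraries. The pairs of libraries left out together, *eat-2* replicates 2 and 4, wild type 20 °C replicates 5 and 6 and wild type 25 °C replicates 1 and 3, were chosen after seeing the data. Members and the 66 gene lists, matched by gene symbol, were chosen with earlier results of these data known. Names came from Ensembl release 115, which gave names to 45842 of 46093 genes. Named genes were the 4 largest rises and falls of each list and the 10 largest of all genes, among those called with a mean of at least 10 counts and no overlap between the groups, the 4 genes that name the mutants, and the tissue markers. The model was also tested on simulated data. It did not reach the share of recovered changes first set as a limit, and that limit was lowered afterwards, so small changes may be missed. Total counts per library were 35524715 to 51287001. Within each group used, no pair of libraries agreed within sampling noise, so each was counted once. Pairs of libraries from different groups were not checked in this way.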

Additional observations from a re-analysis of the deposited data

Results flagged for a closer look

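Between the libraries labelled *eat-2* and wild type 25 °C, 14 of the named genes differed by the direct test. The log2 differences were -3.29 for *ife-2*, -2.49 for *haf-6*, -2.41 for *fbxa-192*, 8.08 for *WBGene00005646*, -0.80 for *fln-2*, -0.68 for *srp-6*, -1.18 for *C09E7.8* and -3.16 for *WBGene00010295*. They were -1.15 for *lec-9*, -0.70 for *col-7*, -0.61 for *col-62*, -1.89 for *WBGene00010209*, -1.14 for *WBGene00010294* and -1.21 for *WBGene00017849*.

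A library stood far from the other 5 of its group by Dixon's test in 48 of 336 groups of values, where chance gives about 1 in 20. *eat-2* replicate 2 was the high one for the summed neuropeptide-like genes (764.7 CPM), cathepsins (13250.5 CPM), lysozymes and saposin-like genes (3516 CPM) and C-type lectins (3443 CPM). It was also high for *rpl-11.2* (1044 CPM), *isp-1* (427 CPM), *mup-2* (979 CPM), *nlp-51* (5.40 CPM), *lipl-3* (4.28 CPM), *cpr-4* (675 CPM) and *vha-6* (568 CPM). Other libraries labelled *eat-2* stood out for *asp-14* (72.7 CPM, replicate 5, low), *kat-1* (316 CPM, replicate 3), *haf-6* (10.5 CPM, replicate 3), *F15D4.5* (2.36 CPM, replicate 1), *F07B7.2* (3.08 CPM, replicate 1) and *srlf-37* (0.0232 CPM, replicate 1).

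In wild type 25 °C, replicate 3 was high for *col-36* (0.488 CPM), *col-158* (1.32 CPM), *clec-47* (120.4 CPM) and *clec-15* (0.229 CPM), and low for *nhr-114* (134 CPM) and *F07B7.2* (1.03 CPM). Replicate 1 was high for *sdz-30* (0.883 CPM) and low for *irg-5* (2.65 CPM), and replicate 2 was high for the summed *flp* genes (316 CPM) and *elo-5* (300.4 CPM). Replicate 5 was high for *C07G1.7* (0.333 CPM) and replicate 4 for *srp-6* (30.1 CPM).

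In wild type 20 °C, replicate 5 was high for the summed other sperm genes (2789 CPM), *flp* genes (363 CPM) and desaturases and elongases (4466 CPM). It was high as well for *eef-1A.2* (609 CPM), *mup-2* (558 CPM), *nspa-7* (9.30 CPM), *nlp-51* (15.6 CPM), *egl-3* (154 CPM), *lipl-3* (16.6 CPM), *cpr-4* (973 CPM), *clec-47* (23.8 CPM), *cyp-13A5* (36.0 CPM), *col-7* (153 CPM) and *WBGene00005646* (0.151 CPM). It was low for *glp-1* (164 CPM), *grl-27* (0.712 CPM) and *F15D4.5* (141 CPM). Replicate 4 was high for *mrps-23* (15.5 CPM) and *vet-6* (4.02 CPM).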

How the results depend on the processing

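No named gene changed direction under any alternative. Of the 66 gene lists, the median crossed 0 under at least 1 alternative in 14, and the majority of calls turned in 13, in each of them with total-count scaling. Of 1717 values for 93 named genes under the alternatives and the settings as reported, 1696 stayed on the same side of the threshold, 17 lost the call and 4 gained it. With libraries scaled by total counts alone, 1403 genes were higher and 3805 lower in the libraries labelled *eat-2* than in wild type 20 °C, and 868 higher and 3646 lower in wild type 25 °C than in wild type 20 °C. The same scaling left 7 hedgehog-related, 0 major sperm protein, 6 other sperm, 17 muscle, 6 cathepsin, 19 C-type lectin, 3 respiratory chain, 3 desaturase and elongase and 8 fatty acid breakdown genes higher, and 2 yolk, 18 oocyte and 52 nuclear hormone receptor genes lower. DESeq2 called 5 major sperm protein genes higher and 2 yolk and 17 oocyte genes lower, and between the libraries labelled *eat-2* and wild type 25 °C it called 53 genes higher and 131 lower. Upper-quartile scaling gave 6 major sperm protein genes higher and 8 oocyte and 4 *flp* genes lower. No filter on low counts gave 6 major sperm protein genes higher and 63 F-box genes lower.

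Without *eat-2* replicates 2 and 4, 3230 genes were lower, with 6 major sperm protein and 45 other sperm genes higher and 2 yolk, 28 oocyte and 16 *flp* genes lower. Without wild type 20 °C replicates 5 and 6, 4 major sperm protein genes were higher and 0 yolk, 1 oocyte, 4 *flp* and 20 nuclear hormone receptor genes lower. Without wild type 25 °C replicates 1 and 3, that group had 3772 genes higher and 3388 lower than wild type 20 °C, and the libraries labelled *eat-2* had 6 higher and 20 lower than that group. When 1 library at a time was left out, the ranges were 7 to 13 for hedgehog-related, 1 to 13 for major sperm protein and 17 to 40 for other sperm genes higher, and 0 to 2 for yolk, 1 to 24 for oocyte and 8 to 17 for *flp* genes lower. Against wild type 25 °C they were 2 to 16 genes higher and 15 to 35 lower. The causes of these shifts were not tested.

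Replicate numbers did not pair the libraries. Deviations of libraries with the same number in the libraries labelled *eat-2* and wild type 20 °C correlated at -0.30 to 0.59, and only replicate 4 correlated best with its own number. With the replicate block 16 respiratory chain genes were higher, wild type 25 °C had 1412 genes higher than wild type 20 °C, and the libraries labelled *eat-2* had 2 higher and 9 lower than wild type 25 °C. Depth limits the genes near the count minimum, such as *col-36* and *grl-23*, which could not be tested once a wild type 20 °C library was left out.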

Other observations

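Gene groups not described above were set against wild type 20 °C in the same way, beside 18.4% higher and 12.8% lower over all genes. Channel genes, which carry ions across membranes, were higher for 24 and lower for 9 of 155 in the libraries labelled *eat-2*, and higher for 6 and lower for 9 of 155 in wild type 25 °C. Chemoreceptor genes, through which sensory neurons detect odours, were mostly too low to test, and of 117 tested 5 were higher and 17 lower, with 1 higher without *eat-2* replicate 1 or 3. Nicotinic receptor genes, the family of *eat-2* itself, had 3 of 30 higher and none lower, or 1 higher without *eat-2* replicate 1 or wild type 20 °C replicate 2 or 3. The 3 higher genes included the scarcely detected *eat-2*. Insulin-like peptide genes were higher for 2 and lower for 5 of 28. Transporters of peptides and amino acids were higher for 10 and lower for 1 of 31, or 2 lower without *eat-2* replicate 4 and 3 without replicate 5, and intestinal identity genes were higher for 9 and lower for 1 of 24, or 2 lower without *eat-2* replicate 2. Transthyretin-related genes were higher for 14 and lower for 6 of 56, SCP and thaumatin-like genes for 2 and 4 of 12, and astacin proteases, some of which act in molting, for 11 and 4 of 32.

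Several lists followed single libraries. Glycolysis and gluconeogenesis genes were higher for 8 and lower for 3 of 35, with 4 or 5 higher without *eat-2* replicate 1, 3 or 6 or wild type 20 °C replicate 1, 2, 3, 4 or 6 and 5 or 6 lower without *eat-2* replicate 2 or 4. Tricarboxylic acid cycle genes were higher for 8 and lower for 1 of 21, with 5 higher without *eat-2* replicate 3, 4 higher without wild type 20 °C replicate 2, 3 lower without *eat-2* replicate 2 and 2 lower without wild type 20 °C replicate 1. Acyl-CoA synthetase and lipid-binding genes were higher for 13 and lower for 8 of 39, with 6 to 8 higher without *eat-2* replicate 1, 3 or 6 or wild type 20 °C replicate 1, 2, 3, 4 or 6. Short-chain dehydrogenases were higher for 5 and lower for 6 of 32, with 3 higher without the same libraries and 3 lower without wild type 20 °C replicate 6. Skp1-related genes, for adaptors of ubiquitin ligases, were lower for 6 of 19, with 2 or 3 lower without those libraries. Patched-related genes were higher for 5 and lower for 2 of 26, with 13 higher without *eat-2* replicate 4 and 1 lower without *eat-2* replicate 1, 3, 5 or 6 or wild type 20 °C replicate 1, 2, 3, 4 or 6. Cuticlin and zona pellucida genes were higher for 7 and lower for 2 of 36, with 12 higher without *eat-2* replicate 4 and 1 lower without any wild type 20 °C library.

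Counts in the germ line lists and the remaining families also varied with the libraries. P granule genes were higher for 2 and lower for 1 of 30, with 6 higher and 8 lower without *eat-2* replicate 2 and 10 lower without *eat-2* replicate 4. Argonaute and small RNA genes were higher for 4 and lower for 4 of 55, with 8 higher and 9 lower without *eat-2* replicate 2 and 12 lower without *eat-2* replicate 4. Meiotic genes were higher for 1 of 31 and lower for none, with 1 lower without *eat-2* replicate 2 or wild type 20 °C replicate 5 and 2 without *eat-2* replicate 4. Histone genes, near-identical copies, were higher for 3 of 46 and lower for none, with 6 higher and 1 lower without *eat-2* replicate 4. Kinase and phosphatase genes of the kind found in sperm were higher for 6 and lower for 1 of 16, with 3 higher without *eat-2* replicate 1 or wild type 20 °C replicate 1 and 2 lower without *eat-2* replicate 4. Antioxidant and metal-binding genes were higher for 4 and lower for 3 of 28, with 2 higher without wild type 20 °C replicate 2 or 3 and 5 lower without *eat-2* replicate 2. Of 24 *pals* genes 1 was higher, with 2 or 3 higher without *eat-2* replicate 1 or 4 or wild type 20 °C replicate 5. Caenacin and *fip* peptide genes were higher for 2 and lower for 1 of 27, with 0 to 4 higher as single libraries were left out, 0 without *eat-2* replicate 3 or 6 or wild type 20 °C replicate 1, 3, 4 or 6, 1 without *eat-2* replicate 1, 2 or 5, and 4 without wild type 20 °C replicate 5.

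Total-count scaling turned the majority of calls in 10 of these lists. It left 9 channel genes higher and 12 lower, 8 and 9 transthyretin-related, 1 and 7 glycolysis and gluconeogenesis, 1 and 3 tricarboxylic acid cycle, 5 and 10 acyl-CoA synthetase and lipid-binding, 2 and 6 antioxidant and metal-binding, 0 and 2 sperm-type kinase and phosphatase, 2 and 14 P granule, 1 and 9 meiotic and 0 and 3 caenacin and *fip* genes.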
